A study of Rattus norvegicus with 4 samples.

Results

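The genes described here, read in rat embryonic stem cells (ESCs), carry the names of translation initiation factors. The set is the 45 protein-coding genes, of 34773 genes in the deposited count table, whose names start with Eif1 to Eif6, that lie outside the X and Y chromosomes and that are not *Eif2ak* kinases. Some of them, such as *Eif4ebp2* and *Eif4enif1*, encode repressors and not initiation factors. The rule uses names and annotation and no measured value, though it was set with earlier results of these data known. RNA was sequenced from 4 cultures. The control, called WT, is 1 library of DA-5-3 ESCs, a wild-type line that carries GFP under the *Rex1* locus. The 3 libraries called *Thop1*-KO #1, #2 and #3 are subclones of the same GFP line in which Cas9 had been directed at *Thop1*, a gene for a zinc metallopeptidase that cuts short peptides. Each *Thop1*-KO library is 1 clone, and all 4 cultures carry the *Rex1*-GFP allele. According to the study's methods its rat ESCs grow on feeder cells in medium with LIF and inhibitors of MEK and GSK3. The series text calls the cells haploid. The study's methods give that name to another line and use DA-5-3 as a diploid control, and ploidy was not checked here.

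Translation of most messages starts when a ternary complex of eIF2, GTP and initiator tRNA joins the small ribosomal subunit together with eIF1, eIF1A, eIF3 and eIF5, and when eIF4F brings the capped message to it. In eIF4F, eIF4E binds the cap, eIF4G is the scaffold and eIF4A is an RNA helicase. Both ends are under control, because eIF2B recharges eIF2 with GTP and stress kinases of the *Eif2ak* family block that step, while 4E-BP proteins hold eIF4E away from eIF4G until mTOR complex 1 phosphorylates them. Naive ESCs are known for a low rate of protein synthesis that rises on differentiation.

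The libraries held 15405499 to 17936544 counts and 16750 to 17803 genes with a count. *Thop1* itself stood at 110, 92.5 and 149 CPM (counts scaled to library size) in *Thop1*-KO #1, #2 and #3 and at 370 in WT, so its message was reduced and not lost. Genes were tested with edgeR's quasi-likelihood test, and a gene is called changed at a Benjamini-Hochberg adjusted p under 0.05 over the 15028 genes tested. With 1 WT library all of the spread comes from the 3 subclones, and the genotype, the control culture and its library cannot be told apart. With 1 library against 3, the smallest one-sided p that exact permutation allows is 0.25. In bulk RNA, fewer cells of a type and less RNA per cell cannot be told apart either. The summed level of the naive ESC marker list was 8613 CPM in WT and 8012 to 10040 in the subclones, with *Pou5f1* at 4794 in WT and 3889 to 4842 in the subclones. Of its genes *Esrrb* (12.1 FPKM in WT, 217 to 252 in the subclones) and *Tfcp2l1* (4.61 and 31.1 to 36.9 FPKM) were called higher, and *Sox2* had WT below every subclone without a call (edgeR adjusted p = 0.157). The feeder or fibroblast list summed to 248.9 CPM in WT and to 435, 851 and 564 in *Thop1*-KO #1, #2 and #3, with *Col5a1* called higher and *Dcn*, *Lum* and *Thy1* at 0 in every library. Primitive endoderm markers summed to 851 CPM in WT and to 1222, 1367 and 1784 in the subclones, with no call, and early differentiation markers to 21.0 in WT and 16.5 to 27.3 in the subclones, with *Nes* called lower. The part of these other cells in the results below was not tested.

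Most initiation factor genes stood lower in *Thop1*-KO than in WT, and 3 genes that act at the cap stood far higher. All 45 passed the filter on low counts. The test called 10 of them (22.2%), against 13.8% of all genes tested. Of these, 3 were higher in *Thop1*-KO (6.67%, against 8.62% of all genes) and 7 were lower (15.6%, against 5.17% of all genes). WT lay above all 3 subclones for 32 of the 45 (71.1%), a position that 37.6% of all genes showed, and below all 3 for 7 (15.6%), against 38.1% of all genes. The median log2 fold change of the members was -0.59, against 0.06 over all genes tested, and 33 were negative and 12 positive. Measured for each subclone against WT, the member median was -0.58 in #1, -0.43 in #2 and -0.65 in #3.

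As a sum the family also stood lower in every subclone, a measure in which genes of high level weigh most. *Eif5a* (3024 FPKM in WT, mean 2237 in the subclones) and *Eif4a1* (1213 and 705) had the highest levels, and neither was called. The summed level of the 45 genes was 8287, 8038 and 7785 FPKM (fragments per kilobase of gene, scaled for depth) in *Thop1*-KO #1, #2 and #3, a mean of 8037 ± 251 (SD, n = 3), and 11060 in WT. The sum over every gene in the table was also larger in WT, at 826300 FPKM against 641100 to 721700 in the subclones. The median ratio of the highest to the lowest subclone was 1.29 for the members and 1.56 for all genes tested. This ratio also depends on the count level, and the members were not compared with genes of like level. The number of calls rests on which subclones are used. Without *Thop1*-KO #3 only the 3 higher genes were called (6.67%, against 3.1% of all genes in that refit). Without *Thop1*-KO #2 31 were called (68.9%, against 37.9% of all genes), 6 higher (13.3%, against 21.1%) and 25 lower (55.6%, against 16.8%). Without *Thop1*-KO #1 8 were called (17.8%, against 13.6% of all genes). The member median stayed between -0.65 and -0.52 in these 3 refits.

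**Figure D1:**
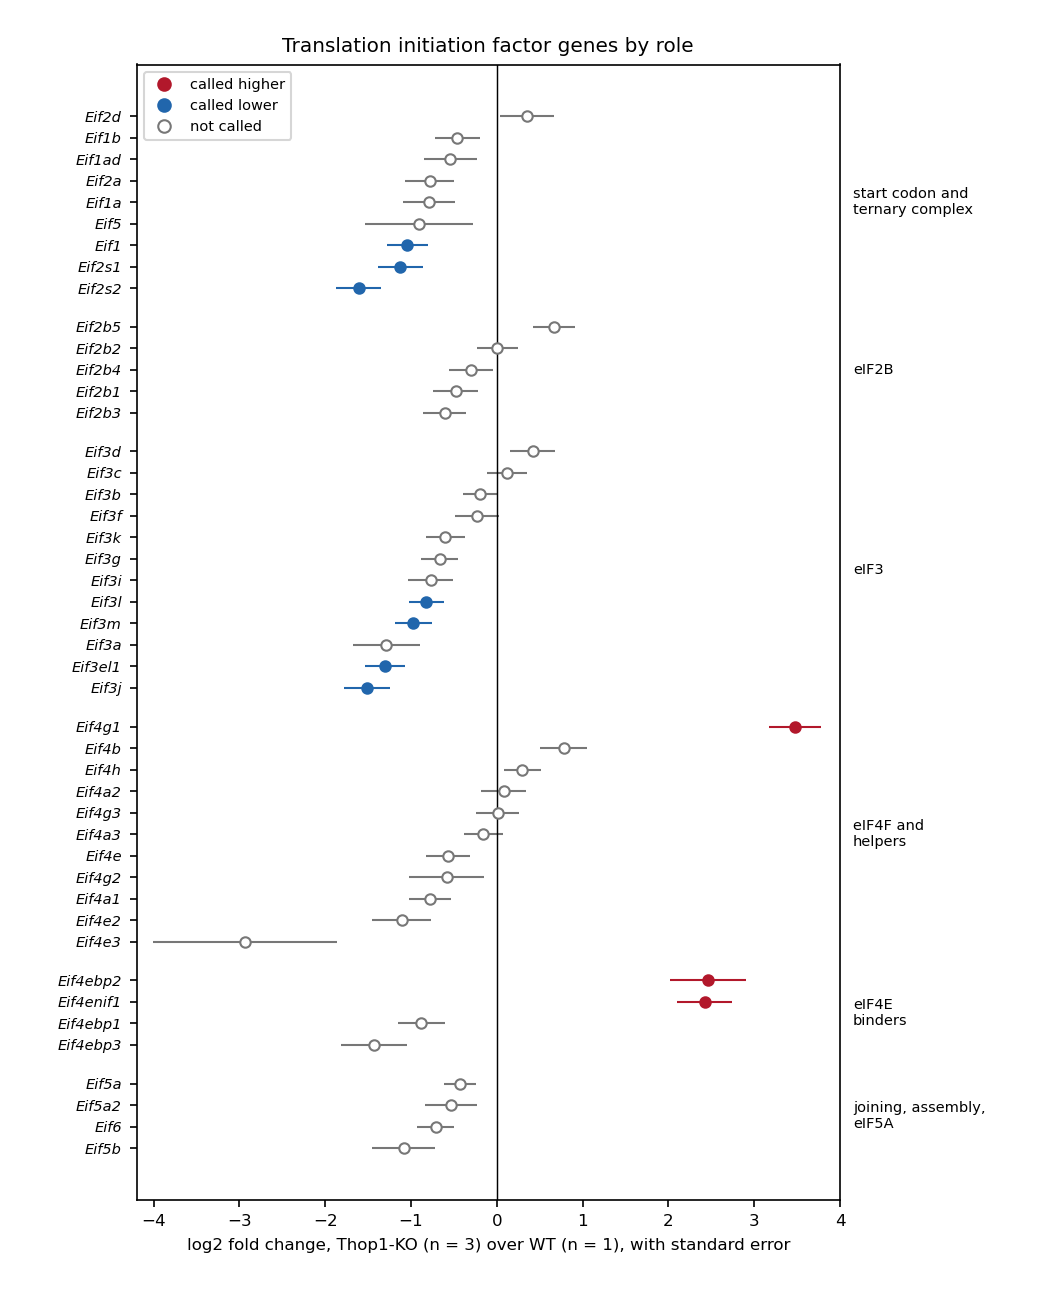
Log2 fold change of each of the 45 initiation factor genes, *Thop1*-KO (n = 3) over WT (n = 1), with its standard error, ordered by role. Filled points are called. The 3 red points at 2.42 to 3.47 stand apart, all 7 blue points belong to the ternary complex and eIF3 groups, and most open points lie left of 0 (the leftmost, *Eif4e3*, rests on 1 to 16 counts a library).

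Short stretches of promoter are shown for the 5 called genes with the largest fold changes, the 3 higher and the 2 lower, so that genes that moved in opposite directions can be compared. They are the 100 bases before the annotated start, from RefSeq on GRCr8, a build that need not be that of the count table. Capitals mark matches on either strand to the E-box CACGTG, the core letters bound by Myc and Max, to CCGGAAG, the core letters of ETS factors, and to the GC box GGGCGG of Sp factors. The stretches lie at chr11:93746368-93746467 on the minus strand for *Eif4g1*, chr20:29942923-29943022 on the minus strand for *Eif4ebp2*, chr14:82280648-82280747 on the plus strand for *Eif4enif1*, chr3:163855571-163855670 on the minus strand for *Eif2s2* and chr3:129438615-129438714 on the plus strand for *Eif3j*.
Eif4g1: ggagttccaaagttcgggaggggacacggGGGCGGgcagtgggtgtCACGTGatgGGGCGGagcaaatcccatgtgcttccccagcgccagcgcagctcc
Eif4ebp2: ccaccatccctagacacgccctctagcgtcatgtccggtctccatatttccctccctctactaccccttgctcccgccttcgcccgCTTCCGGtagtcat
Eif4enif1: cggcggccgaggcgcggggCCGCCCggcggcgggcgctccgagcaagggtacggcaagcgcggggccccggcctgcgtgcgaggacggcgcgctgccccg
Eif2s2: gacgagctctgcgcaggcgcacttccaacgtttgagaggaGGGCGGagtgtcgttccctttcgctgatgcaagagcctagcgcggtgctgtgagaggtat
Eif3j: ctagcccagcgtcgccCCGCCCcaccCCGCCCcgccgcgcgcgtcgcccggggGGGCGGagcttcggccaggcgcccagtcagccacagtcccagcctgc

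The *Eif4g1* stretch holds an E-box between a pair of GC boxes, that of *Eif4ebp2* holds the ETS letters 14 bases before the start, and those of *Eif4enif1*, *Eif2s2* and *Eif3j* hold GC boxes. RefSeq entries were found for 41 of the 45 members and for 9 of the 10 called genes. Over 300 bases, from 250 before the start to 50 after it, the E-box was in 9 of the 41 (22.0%), against 6.42% of 33469 rat promoters and 10.1% of the 9551 tested coding genes with an entry. A gene counted if any of its entries matched, while the 33469 promoters were counted singly. Only the share of tested coding genes is therefore a like measure. Of the called genes only *Eif4g1* had it, while *Eif1b*, *Eif3a*, *Eif3b*, *Eif3f*, *Eif4e*, *Eif4h*, *Eif5a* and *Eif5a2*, which were not called, had it too. The ETS letters were in 16 (39.0%), against 8.75% of promoters and 18.5% of tested coding genes, among them *Eif4ebp2*, which was higher, and *Eif3m*, which was lower. The GC box was in 28 (68.3%), against 33.1% of promoters and 65.1% of tested coding genes, and CCAAT was in 15 (36.6%), against 37.5% and 39.3%. GC boxes stood in called genes of both directions, and a match of letters is no binding site.

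The scaffold gene *Eif4g1* changed most. It was read at 7201, 8835 and 6953 counts in *Thop1*-KO #1, #2 and #3 and at 587 counts in WT. Per length this is 88.8, 102.8 and 78.6 FPKM in the subclones, a mean of 90.1 ± 12.2 (SD, n = 3), against 8.12 in WT. The lowest subclone lay far above WT, and the CPM were 11.1-fold higher on average (log2 fold change 3.47, SE 0.30, edgeR adjusted p = 0.00678). The gene (ENSRNOG00000001738) lies at chr11:83908109-83926524 on the minus strand of the annotation used by the authors, whose build is not given in the sources used here. The only gene that overlaps it is a small nucleolar RNA with at most 2 counts.

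Its paralogs were not called. *Eif4g2*, whose product lacks the site for eIF4E and is linked to cap-independent starts, stood at 21.3, 50.3 and 30.7 FPKM in the subclones and 51.3 in WT (log2 fold change -0.59, edgeR adjusted p = 0.371). *Eif4g3*, another full scaffold, stood at 8.50, 8.96 and 8.50 FPKM and 8.62 in WT (log2 fold change 0.01, edgeR adjusted p = 0.986). In WT *Eif4g1* and *Eif4g3* were thus at about the same level, and in the subclones *Eif4g1* was the highest of the 3 genes. Expressed as a share of their summed FPKM, *Eif4g1* took 74.9%, 63.4% and 66.7% in *Thop1*-KO #1, #2 and #3 (68.3% ± 5.88, SD, n = 3) and 11.9% in WT. *Eif4g2* took 17.98%, 31.1% and 26.1% in the subclones and 75.4% in WT, so the eIF4G gene with the largest share differed between WT and every subclone.

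The other genes of eIF4F and its helpers, the helicases and their cofactors, gave no call. *Eif4e*, the cap-binding subunit, stood at 30.8, 37.3 and 28.2 FPKM in the subclones and 47.5 in WT (log2 fold change -0.56, SE 0.26, edgeR adjusted p = 0.172). *Eif4a1*, the main helicase and the gene with the highest level in this group, stood at 617, 863 and 634 FPKM against 1213 in WT (log2 fold change -0.78, SE 0.24, edgeR adjusted p = 0.0763). *Eif4b*, which stimulates the helicase, was on the other side at 226, 155 and 204 FPKM against 114 in WT (log2 fold change 0.78, SE 0.27, edgeR adjusted p = 0.101). All 3 subclones lay on the same side of WT for each of these genes, while the differences did not pass the threshold. *Eif4e2*, which encodes a cap-binding protein that represses translation, was at 46.9, 81.9 and 46.8 FPKM against 127 in WT (edgeR adjusted p = 0.0777, called by DESeq2). *Eif4h* was higher in each subclone than in WT, and *Eif4a2* and *Eif4a3*, the second of which acts in the exon junction complex, had WT inside the subclones' range. *Eif4e3* was nearly unread, at 3, 3 and 1 counts in *Thop1*-KO #1, #2 and #3 against 16 in WT, too few to give a fold. The group of 11 had 1 call (9.09%, against 13.8% of all genes) and a median log2 fold change of -0.16.

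Ratios of eIF4G genes, *Eif4g2* included in the sum, to the cap-binding gene show the size of the shift. *Eif4g1* FPKM over *Eif4e* FPKM was 2.88, 2.76 and 2.79 in *Thop1*-KO #1, #2 and #3 and 0.171 in WT, and the summed eIF4G genes over *Eif4e* gave 3.85, 4.35 and 4.18 against 1.43. The subclones lay close together on both ratios and apart from WT.

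Genes for proteins that bind eIF4E and keep it from eIF4G moved in both directions. *Eif4ebp2*, which encodes 4E-BP2, had 4511, 2440 and 3355 counts in *Thop1*-KO #1, #2 and #3 and 534 in WT. Its level was 152.7, 77.9 and 104.0 FPKM in the subclones, a mean of 112 ± 38.0 (SD, n = 3), against 20.3 in WT. It was higher in every subclone, 5.51-fold on average in CPM (log2 fold change 2.46, SE 0.44, edgeR adjusted p = 0.0202), with *Thop1*-KO #1 at about 1.95 times *Thop1*-KO #2. *Eif4enif1*, which encodes the eIF4E transporter 4E-T, a shuttle and repressor found in P-bodies, stood at 693, 738 and 687 counts in the subclones and 112 in WT. That is 11.3, 11.4 and 10.3 FPKM against 2.05, a 5.36-fold difference in CPM with nearly equal subclones (log2 fold change 2.42, SE 0.32, edgeR adjusted p = 0.00947). The genes lie at chr20:31055789-31072469, minus strand, and chr14:83412968-83455456, plus strand, of the authors' annotation.

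The other 4E-BP genes stood lower in the subclones and were not called. *Eif4ebp1*, by far the highest of the 3 paralogs, was at 307, 458 and 423 FPKM in the subclones and 729 in WT (log2 fold change -0.88, SE 0.27, edgeR adjusted p = 0.0744). *Eif4ebp3*, the lowest, was at 0.969, 1.73 and 1.57 FPKM against 3.86 in WT (log2 fold change -1.43, SE 0.38, edgeR adjusted p = 0.0524), and DESeq2 called it. Its model in the annotation is 8986 bases long, the longest of the 45, against 831 for *Eif4ebp1*, and spans chr18:29386809-29492718. Its level per length is thus uncertain, and whether all of its counts come from *Eif4ebp3* was not tested. *Eif4ebp2* therefore made up 33.2%, 14.5% and 19.7% of the 4E-BP FPKM in *Thop1*-KO #1, #2 and #3 (22.5% ± 9.64, SD, n = 3) and 2.69% in WT. Summed together with *Eif4enif1*, the 4E-BP genes came to 472, 549 and 539 FPKM in the subclones and 755 in WT. Relative to the cap-binding gene, which also stood lower in every subclone, the 4E-BP total was not set apart. Summed 4E-BP FPKM over *Eif4e* FPKM was 14.9, 14.4 and 18.8 in the subclones and 15.9 in WT, which lay inside their range. For *Eif4ebp2* alone the same ratio was 4.95, 2.09 and 3.69 in the subclones and 0.427 in WT, which lay under all of them.

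**Figure D2:**
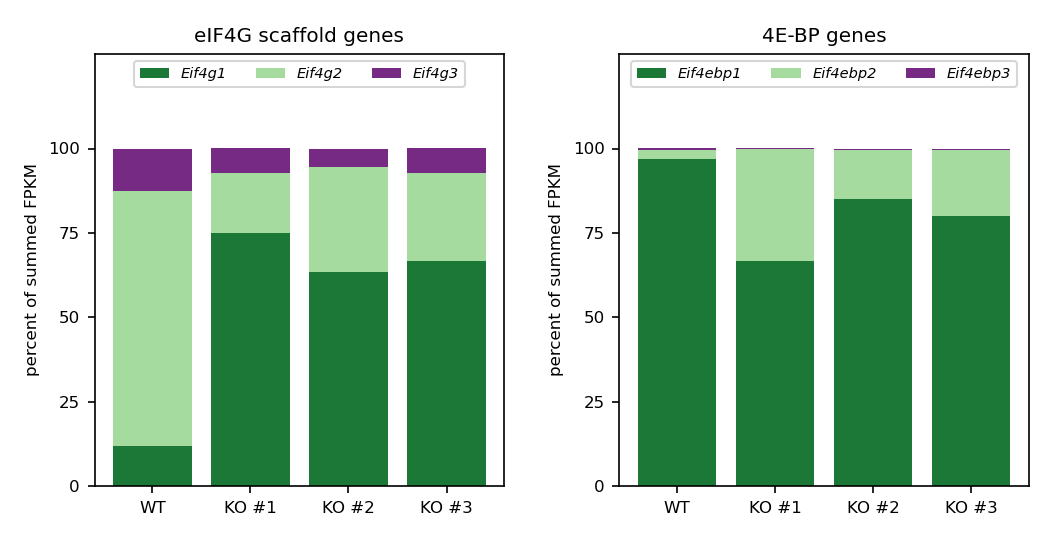
Share of summed FPKM (percent) taken by each eIF4G gene (left) and each 4E-BP gene (right) in each library, as stacked bars that add to 100. *Eif4g1* takes 11.9% in WT and 63.4% to 74.9% in the subclones, and *Eif4ebp2* takes 2.69% in WT and 14.5% to 33.2% in the subclones.

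The 3 higher genes were called under every one of the 12 other fits, including those without each subclone. Without *Thop1*-KO #3 their largest adjusted p was 0.0419, for *Eif4ebp2* and *Eif4enif1*.

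Among the genes of start codon selection and the ternary complex 3 of 9 were called, all lower (33.3%, against 5.17% of all genes), and 6 were not. The median log2 fold change was -0.79, and WT lay above every subclone for 8 of the 9 (88.9%, against 37.6% of all genes). *Eif2s2*, the beta subunit of eIF2, had 1413, 2155 and 1892 counts in *Thop1*-KO #1, #2 and #3 and 4715 in WT. Per length it stood at 58.3, 83.9 and 71.6 FPKM against 218 in WT, so the highest subclone was well under the control (log2 fold change -1.61, SE 0.26, edgeR adjusted p = 0.0152). *Eif2s1*, the alpha subunit and the one that stress kinases phosphorylate, stood at 69.1, 71.3 and 50.5 FPKM against 139 (log2 fold change -1.12, SE 0.26, edgeR adjusted p = 0.0382). *Eif1*, which guards the choice of start codon and has the highest level of this group, stood at 281, 213 and 282 FPKM against 534 (log2 fold change -1.05, SE 0.24, edgeR adjusted p = 0.0360). Its paralog *Eif1b* was at 45.0, 38.5 and 41.5 FPKM against 57.4 and was not called (edgeR adjusted p = 0.249). The 3 genes lie at chr3:150391460-150412179 (*Eif2s2*, minus strand), chr6:102048372-102073041 (*Eif2s1*, plus strand) and chr10:88227360-88229765 (*Eif1*, plus strand). None of the 3 was called without *Thop1*-KO #3, where the adjusted p was 0.0561 for *Eif2s2*, 0.163 for *Eif2s1* and 0.112 for *Eif1*, and their log2 fold changes stayed between -1.74 and -0.92 whichever subclone was left out.

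The rest of this group did not pass. *Eif1a*, which works beside eIF1, stood at 12.4, 17.8 and 14.2 FPKM against 25.6 in WT (log2 fold change -0.79, edgeR adjusted p = 0.119). *Eif2a*, the gene with the lowest level here, whose product can bring initiator tRNA without eIF2, stood at 9.16, 11.0 and 11.4 FPKM against 18.1 (log2 fold change -0.78, edgeR adjusted p = 0.108), and it overlaps *Serp1* on the other strand. *Eif5*, the GTPase-activating factor of eIF2, differed most among the subclones of all 45 genes, at 343, 1477 and 884 counts with 1427 in WT (edgeR adjusted p = 0.338). *Thop1*-KO #2 was above WT in raw counts there, and #1 was the lowest. *Eif2d*, which releases and restarts ribosomes, had WT inside the subclones' range. For eIF2B, the exchange factor, none of the 5 subunit genes was called and the median was -0.30. They ranged from -0.61 for *Eif2b3* to 0.67 for *Eif2b5*, the catalytic subunit, which stood at 45.9, 52.2 and 49.4 FPKM in the subclones and 31.1 in WT (edgeR adjusted p = 0.108). *Eif2b2*, the highest of the 5, was at 65.2, 54.4 and 57.0 FPKM against 58.7, and *Eif2b1*, the lowest, at 24.7, 31.2 and 24.3 against 37.3. By the unadjusted p, 2 of the 5 passed 0.05, as did 5110 of the 15028 genes tested.

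Of the genes for the large scaffold eIF3, 4 of 12 were called, all lower (33.3%, against 5.17% of all genes), and 8 were not. The median log2 fold change was -0.72, and WT lay above every subclone for 10 (83.3%, against 37.6% of all genes). *Eif3j*, a loosely held subunit that helps the complex on and off the small ribosomal subunit, had 264, 306 and 297 counts in *Thop1*-KO #1, #2 and #3 and 700 in WT. It stood at 8.63, 9.44 and 8.90 FPKM against 25.7, with subclones that were nearly alike (log2 fold change -1.51, SE 0.27, edgeR adjusted p = 0.0195). *Eif3m* and *Eif3l* encode subunits of its core. *Eif3m* was at 89.0, 98.5 and 91.4 FPKM against 183 in WT (log2 fold change -0.97, SE 0.22, edgeR adjusted p = 0.0343). *Eif3l* was at 208, 198 and 218 FPKM against 368 (log2 fold change -0.82, SE 0.21, edgeR adjusted p = 0.0449). Every subclone was under WT for each of these genes, and the highest subclone was at most 1.12 times the lowest. *Eif3el1* was at 42.0, 50.5 and 45.1 FPKM against 113 (log2 fold change -1.30, SE 0.23, edgeR adjusted p = 0.0203), but RefSeq gives this name both to a gene of its own and as a synonym of *Eif3e*, and reads may be shared between such copies, so its value is uncertain. The coordinates are chr3:113976687-113998922 for *Eif3j* (plus strand), chr3:94990068-95007712 for *Eif3m* (minus strand), chr7:120320547-120331595 for *Eif3l* (plus strand) and chr13:100129761-100162461 for *Eif3el1* (plus strand). Without *Thop1*-KO #3 the adjusted p was 0.102 for *Eif3j*, 0.166 for *Eif3m* and 0.182 for *Eif3l*, *Eif3el1* was not called either, and without *Thop1*-KO #1 *Eif3l* (0.0701) and *Eif3m* (0.0562) were not called.

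The remaining eIF3 genes were not called. *Eif3a*, the largest core subunit and the gene with the lowest level of the complex, was at 5.04, 10.4 and 8.51 FPKM against 19.6 in WT (log2 fold change -1.29, SE 0.39, edgeR adjusted p = 0.0714). *Eif3k*, the gene with the highest level, was at 465, 364 and 435 FPKM against 639 (log2 fold change -0.60, edgeR adjusted p = 0.118). *Eif3b*, another subunit, was at 220, 248 and 216 FPKM against 260 (log2 fold change -0.19), so not all eIF3 subunits stood equally far from WT. *Eif3d*, which can bind the cap of some messages, was above WT in each subclone at 488, 340 and 456 FPKM against 321 (log2 fold change 0.42, edgeR adjusted p = 0.306), and *Eif3c* had WT inside the subclones' range. *Eif3i* overlaps *Tmem234*, on the other strand, for which the subclones gave 365, 130 and 308 counts and WT gave 91, and the strand setting of the counting is not given in the sources used here.

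**Figure D3:**
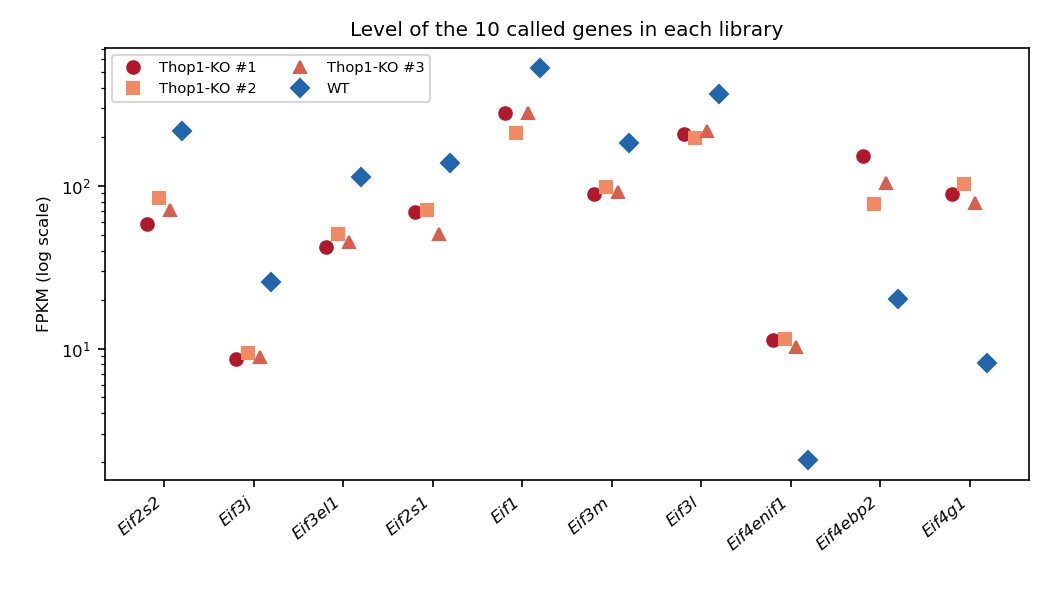
FPKM (log scale) of the 10 called genes in each library. WT (blue diamond) lies above the 3 subclones for the 7 genes on the left and below them for *Eif4enif1*, *Eif4ebp2* and *Eif4g1*, at 2.05, 20.3 and 8.12 FPKM.

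Factors of subunit joining and ribosome assembly and the eIF5A genes stood lower in all 3 subclones, 4 of 4 (100%, against 37.6% of all genes). Their median log2 fold change was -0.62, and none was called. *Eif5a*, which helps ribosomes past difficult peptide bonds and has the highest level of the 45, was at 2373, 2308 and 2030 FPKM against 3024 in WT (log2 fold change -0.43, SE 0.18, edgeR adjusted p = 0.152). Its paralog *Eif5a2* was at 3.68, 4.24 and 3.37 FPKM against 5.45. *Eif5b*, the GTPase that joins the ribosomal subunits, was at 5.33, 10.1 and 7.06 FPKM against 15.9 (log2 fold change -1.09, SE 0.37, edgeR adjusted p = 0.0939). *Eif6*, which keeps the large subunit from joining early, was at 256, 214 and 227 FPKM against 380 (log2 fold change -0.71, SE 0.21, edgeR adjusted p = 0.0716). DESeq2 called *Eif5b*, and *Eif6* was called with upper quartile scaling and without *Thop1*-KO #2.

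DESeq2 called 14 of the 44 members to which it gave an adjusted p (31.8%), against 21.3% of the genes it could test. It called the same 10 genes and *Eif3a*, *Eif4e2*, *Eif4ebp3* and *Eif5b*, all lower. In edgeR 26 of the 45 had an unadjusted p under 0.05, as had 5110 of the 15028 genes tested.

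Fold changes in these libraries moved with gene length. The median log2 fold change of all genes tested went from -0.47 in the class with the shortest genes of 5 equal classes, over -0.12, 0.10 and 0.23, to 0.38 in the class with the longest. In the same order 4, 12, 11, 11 and 7 of the initiation factors were in the 5 classes, with medians of -0.68, -0.77, -0.61, -0.48 and -0.53. The member medians rose over the middle classes and not over the outer ones, and each lay under that of all genes in its class. Across the 45 genes log2 length and log2 fold change gave Pearson's r of 0.21 and Spearman's rho of 0.22, as a description over genes that share the same 4 libraries. With each library corrected for length the member median was -0.54, against 0.006 over all genes. In that fit 9 of the 45 were called, against 1905 of the 15028 genes tested. *Eif2s1* (adjusted p = 0.0530), *Eif3m* (0.0560) and *Eif3l* (0.0624) were no longer called, and *Eif3a* (0.0349) and *Eif4ebp3* (0.0217) were. *Eif4g1*, *Eif4ebp2* and *Eif4enif1* kept log2 fold changes of 3.16, 2.44 and 2.15.

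**Figure D4:**
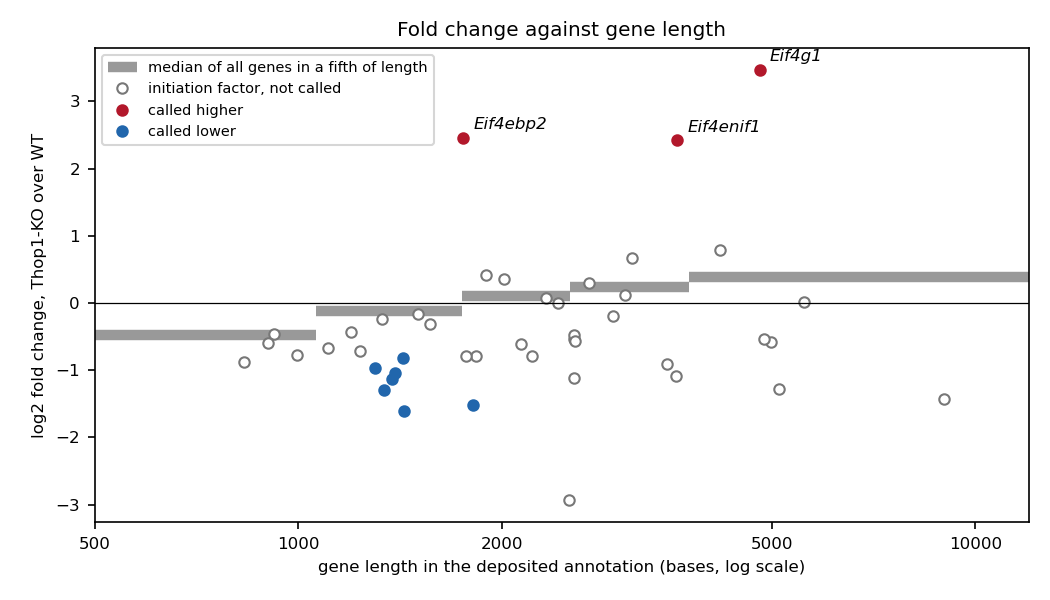
Log2 fold change (*Thop1*-KO over WT) of the 45 initiation factor genes against gene length (bases, log scale), with grey bars for the median of all genes tested in each of the 5 length classes. The grey bars climb from -0.47 to 0.38, while most members lie under the bar of their own length class and the 3 named genes lie far above it.

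Other genes of the pathway, a list of 44 regulators, partners, elongation and termination factors, were read beside the members. The test called 7 of the 44 (15.9%, against 13.8% of all genes), and the median log2 fold change was -0.05. Of the 7, 2 were higher (4.55%, against 8.62% of all genes) and 5 lower (11.4%, against 5.17% of all genes). *Paip2b*, whose product keeps poly(A)-binding protein from eIF4G, had 482, 458 and 438 counts in *Thop1*-KO #1, #2 and #3 and 19 in WT (log2 fold change 4.36, SE 0.43, edgeR adjusted p = 0.00678), while *Paip2* was at 55.2 ± 3.62 FPKM (SD, n = 3) against 76.0 in WT. *Larp1*, which binds messages of the translation machinery and acts under mTOR complex 1, was at 37.7, 39.2 and 38.4 FPKM against 10.8 (log2 fold change 1.83, SE 0.26, edgeR adjusted p = 0.0113). WT lay under every subclone for both genes.

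The 5 lower genes act along the ribosome's cycle. *Denr*, which works with *Mcts1* in restarting ribosomes, was at 55.4, 61.9 and 52.8 FPKM against 148 in WT (log2 fold change -1.38, edgeR adjusted p = 0.0195). *Eef1d* and *Eef1b2*, exchange subunits of the elongation factor eEF1, were at 241, 241 and 243 FPKM against 456 (log2 fold change -0.91, edgeR adjusted p = 0.0292) and at 750, 909 and 761 FPKM against 1496 (log2 fold change -0.89, edgeR adjusted p = 0.0371). All subclones of each lay under WT. *Etf1*, the release factor, was at 26.7, 46.2 and 33.0 FPKM against 86.3 (log2 fold change -1.29, edgeR adjusted p = 0.0447), and *Abce1*, which splits ribosomes, at 5.56, 9.68 and 6.35 FPKM against 18.4 (log2 fold change -1.35, edgeR adjusted p = 0.0496). The 8 elongation and termination factors of the list went both ways, 4 with negative and 4 with positive log2 fold changes. *Eef2* was at 3328, 1998 and 3556 FPKM against 1499 in WT (log2 fold change 0.99), called higher by DESeq2 and not by edgeR. *Eef1a1* also had WT under every subclone, without a call. Without *Thop1*-KO #3 1 of the 44 was called, against 3.1% of all genes. Leaving out *Thop1*-KO #2 gave 24 (against 37.9% of all genes) and leaving out *Thop1*-KO #1 gave 5 (against 13.6%). With library size as the only scaling 5 were called, 3 higher and 2 lower, against 1429 higher and 613 lower of the 15028 genes tested. DESeq2 called 11 (25%, against 21.3% of all genes), 6 higher and 5 lower. After the length correction *Denr* (log2 fold change -0.85, edgeR adjusted p = 0.0706) and *Eef1b2* (log2 fold change -0.61, edgeR adjusted p = 0.108) were no longer called, and *Gigyf2* (0.0265) and *Eif2ak2* (0.0481) were, both lower.

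Kinases that set the activity of the factors were not called in the main edgeR fit, and they stood on both sides of WT. *Mtor* (log2 fold change 0.95, edgeR adjusted p = 0.0562), its partner *Rptor* (log2 fold change 0.95, edgeR adjusted p = 0.0671) and the endoplasmic reticulum stress kinase *Eif2ak3* (log2 fold change 1.41, edgeR adjusted p = 0.0845) had all 3 subclones above WT, and DESeq2 called all 3 higher (adjusted p = 0.0244, 0.0315 and 0.0379). *Eif2ak2*, the kinase that responds to double-stranded RNA, had WT above all 3 subclones (log2 fold change -1.30, edgeR adjusted p = 0.0773), as had the kinases of ribosomal protein S6, *Rps6kb1* (log2 fold change -1.08, edgeR adjusted p = 0.205) and *Rps6kb2* (log2 fold change -0.73, edgeR adjusted p = 0.138). *Eif2ak1*, *Eif2ak4*, *Mknk2* and *Eef2k* had WT under every subclone, and *Mknk1* had it inside their range, without a call. *Atf4*, the transcription factor whose translation rises when eIF2 is phosphorylated, was at 236, 621 and 452 CPM in the subclones and 684 in WT (edgeR adjusted p = 0.351), with subclones that differed by 2.63 times. These are message levels, and phosphorylation, protein and rates of translation were not measured here.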

How the data were processed

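Poly(A) RNA of 1 WT and 3 *Thop1*-KO cultures was sequenced with a NEBNext Ultra kit. The submitters' processing notes name HISAT2 2.0.5 and featureCounts 1.5.0-p3. Genome build, annotation release and strand setting are not given in the sources used here. The authors deposited raw counts per gene, used for all tests, and FPKM, used for levels, in which each count is scaled by the gene's length and by a factor common to its library.

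Counts were fitted in edgeR 4.0.16 (R 4.3.3) with TMM scaling, filterByExpr at a minimum count of 10, the quasi-likelihood test and Benjamini-Hochberg adjustment over 15028 genes. The fit has 2 residual degrees of freedom, all from these 3 subclones. The test draws each gene's spread toward that of the other genes tested, so a p-value does not rest on the gene's own spread alone. The SE is the log2 fold change over the square root of F. CPM are counts per TMM-scaled total of the tested genes. The 13 alternatives were other scalings, DESeq2 1.42.0, other filters, a loess correction for gene length with a span of 0.3, limma 3.58.1 on log2 FPKM with pseudocounts of 1 and 0.1, a call rule with a fold of 2, and leaving out each subclone.

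Members, role groups, the 44 partner genes and the marker lists were chosen with earlier results of these data known, and the promoter motifs and the printed promoters after the values were seen. Named were *Thop1*, all called genes, the member of each role group with the largest fold change and those with the highest and lowest mean FPKM, members whose call changed under an alternative, as sets where many, and the called partner genes. Others named in a complex or paralog set were chosen after their values were seen. Promoters come from RefSeq on GRCr8.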

Additional observations from a re-analysis of the deposited data

How the results depend on the processing

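No paired analysis was possible because WT has 1 library, so the groups share fewer than 2 replicate numbers. Which subclones entered the fit changed the calls most, and the cause was not tested. Leaving out each subclone, the calls ranged from 457 (without *Thop1*-KO #3) to 5572 (without *Thop1*-KO #2) of all genes, from 3 to 31 of the initiation factor genes and from 1 to 24 of the partner list, in the same order. DESeq2 called 11 of the partner list, 6 higher and 5 lower. Limma called 4 at each pseudocount, against 1908 and 1866 of the 15028 genes tested with pseudocounts of 1 and 0.1. The median log2 fold change of the initiation factor genes stayed between -0.67 and -0.49 in every setting run, and that of all genes between -0.04 and 0.19. *Eif4g1*, *Eif4ebp2* and *Eif4enif1* were called in all 12 refits, with the lowest log2 fold change at 1.97 for *Eif4enif1* in limma with a pseudocount of 1. Of the 7 lower genes, limma did not call *Eif1*, *Eif2s1* and *Eif3l* at either pseudocount, and the fit without a filter did not call *Eif3l*. The call rule with a fold of 2 left 8 genes, 3 higher and 5 lower, against 1998 of the 15028 genes tested. Over the gene and setting pairs, 471 kept direction and side of the threshold, 32 gained a call, 19 lost one and 16 turned sign. The turns concern 4 uncalled genes near 0. *Eif2b2*, at 0.006, was -0.005982 with DESeq2's size factors, -0.096 with upper quartile scaling, -0.0036 with 10 counts in every library, -0.16 after the length correction, -5.192e-05 and -0.00012 in limma with pseudocounts of 1 and 0.1, and between -0.058 and 0.062 when a subclone was left out. *Eif4g3* was -0.0045, -0.090, -0.00069 and -0.32 in the first 4 of these and between -0.015 and 0.036 when a subclone was left out. *Eif4a2* was -0.021 with upper quartile scaling, -0.073 after the length correction and -0.013 without *Thop1*-KO #3, and *Eif3c* was -0.11 after the length correction.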

Other observations

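Initiation factor genes on the X chromosome stood outside the set described above and were read in the same fit. *Eif2s3*, the gamma subunit of eIF2 that binds GTP and initiator tRNA, was at 299.9, 268.5 and 307 CPM in *Thop1*-KO #1, #2 and #3 and at 407 in WT (log2 fold change -0.48, edgeR adjusted p = 0.165). *Eif1ax*, the X-linked gene for eIF1A, was at 199, 244 and 181.5 CPM in the subclones and 326 in WT (log2 fold change -0.65, edgeR adjusted p = 0.120). WT lay above all 3 subclones for both genes, and neither was called. The other eIF2 subunit genes, *Eif2s1* and *Eif2s2*, were called lower. The FPKM of *Eif2s2* over that of *Eif2s1* was 0.844, 1.18 and 1.42 in the subclones and 1.57 in WT, so the beta message stood above the alpha message in WT and in *Thop1*-KO #2 and #3 and under it in *Thop1*-KO #1.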
